A study of Rattus norvegicus with 23 samples.

Results

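The platelet-derived growth factor (PDGF) system is described here in rat kidney cells through its 4 ligand genes, Pdgfa, Pdgfb, Pdgfc and Pdgfd, and its receptor genes Pdgfra and Pdgfrb. The 6 genes were picked by symbol from the 30452 genes of the rat count table, and 22243 of those genes had a count in any of the 23 labelled samples. Of the 6, 5 passed the filter on low counts and stand among the 14777 genes tested, and Pdgfd did not pass.

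The study asked how an acidic medium alters gene expression in rat kidney cells grown in monoculture, by sequencing of poly(A) RNA. NRK-52E (labelled NRKE, epithelial) and NRK-49F (labelled NRKF, fibroblast) are established lines from normal rat kidney, and the labels give no engineered change in either. After 24 h without serum, cells spent 48 h at pH 7.4, the control, or at pH 6.0, set with HCl. NRK-52E cells gave 6 libraries at each pH, in sample groups 1 and 3 of the labels, and NRK-49F cells gave 6 at pH 7.4 and 5 at pH 6.0, in sample groups 4 and 6. The labels do not say what a sample group is, or whether the libraries of a group come from separate cultures, so each p-value measures the spread between samples.

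Total counts ran from 17108547 to 32492245 (median 19131834) in NRK-52E cells at pH 7.4 and from 16657666 to 33690997 (median 17438369) at pH 6.0. In NRK-49F cells they ran from 16412564 to 34250535 (median 24822381) at pH 7.4 and from 16800361 to 31206192 (median 24410964) at pH 6.0. Levels are given as FPM, the fragments of a gene per 1000000 of the library's total after trimmed-mean scaling. A limit of 3 counts equals 0.0839 to 0.203 FPM, depending on the library, and this limit and all intervals below cover counting error only. FPM is not corrected for gene length, so the level of a PDGF gene is compared between samples and not with that of another gene. Where a marker is said to lead a list, it has the most fragments in that list.

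Single libraries also differed from their replicates over all genes. Between A042 and each other NRK-49F library at pH 6.0, chi-square per degree of freedom of the counts was 55.9 to 134, and among those others it was 8.10 to 55.2. For A035 against the other NRK-52E libraries at pH 7.4 it was 49.0 to 91.0, and 6.78 to 33.4 among the others. For A052 it was 20.95 to 102 against the other NRK-49F libraries at pH 7.4, and 6.21 to 38.7 among those. The measure grows with depth and includes the sample groups. A042 and A035 thus stood apart as whole libraries, and their place in single genes and marker sums below is to be read with that in mind.

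As background, PDGF ligands are secreted dimers that bring receptor chains together and so switch on their tyrosine kinases, which feed the Ras-ERK and phosphatidylinositol 3-kinase pathways. In kidney, the receptors are best known from fibroblasts, pericytes and mesangial cells, and the ligands from epithelium, endothelium and platelets among others. The signal is studied there for its part in interstitial fibrosis and in the growth of mesangial cells.

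The lines were checked against marker lists. In NRK-49F cells at pH 7.4, 21 of 25 fibroblast markers had a mean over 1 FPM, with the most fragments from the collagen gene Col1a1 at 5877 ± 603 FPM (SD, n = 6), while Thy1 and Tcf21 had no counts. In NRK-52E cells at pH 7.4, 7 of the 23 epithelial markers in the table had a mean over 1 FPM, and Cldn4 and Esrp1 had no counts. The adhesion genes Epcam and Cdh1 and the keratin gene Krt18 were too low there to be tested. The keratin gene Krt8, which leads the epithelial markers, had 499 ± 76.4 FPM (SD, n = 6) in NRK-52E cells and 839 ± 193 FPM (SD, n = 6) in NRK-49F cells. NRK-52E cells also held 6149 ± 1378 FPM (SD, n = 6) of the collagen gene Col3a1. Of the 7 epithelial markers, Krt7, Marveld2, Tjp3, Rab25 and Spint1 had higher means in NRK-52E than in NRK-49F cells at pH 7.4. The means were 21.8 against 1.42 FPM for Krt7 and 35.9 against 0.411 FPM for Marveld2. Krt8 and Ovol1 had lower means in NRK-52E cells. Col1a1 had a mean of 58.1 FPM in NRK-52E cells at pH 7.4. The data thus go against a full epithelial profile for NRK-52E cells, though some markers set them apart from NRK-49F cells. They are called by their line name below.

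Acid moved the PDGF genes of NRK-52E cells in both directions. Pdgfa rose, and Pdgfb, Pdgfc, Pdgfra and Pdgfrb fell, so that 5 of the 5 genes tested were called against 61.2% of all 14777 genes tested (3647 higher, 5402 lower). With each line fitted alone the genes called there were near balance, 4077 higher and 4258 lower, so the excess of falls over all genes depends on the processing. In NRK-49F cells Pdgfa and Pdgfrb fell, 2 of 5, against 28.9% of all genes tested. The change itself differed between the lines for Pdgfa, Pdgfra and Pdgfrb, 3 of 5, against 41.4% of all genes tested. A call here means an adjusted p under 0.05 in the quasi-likelihood test of edgeR, after Benjamini-Hochberg adjustment over all genes tested. In bulk samples such as these, fewer cells of a type and less RNA per cell cannot be told apart.

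**Figure D1:**
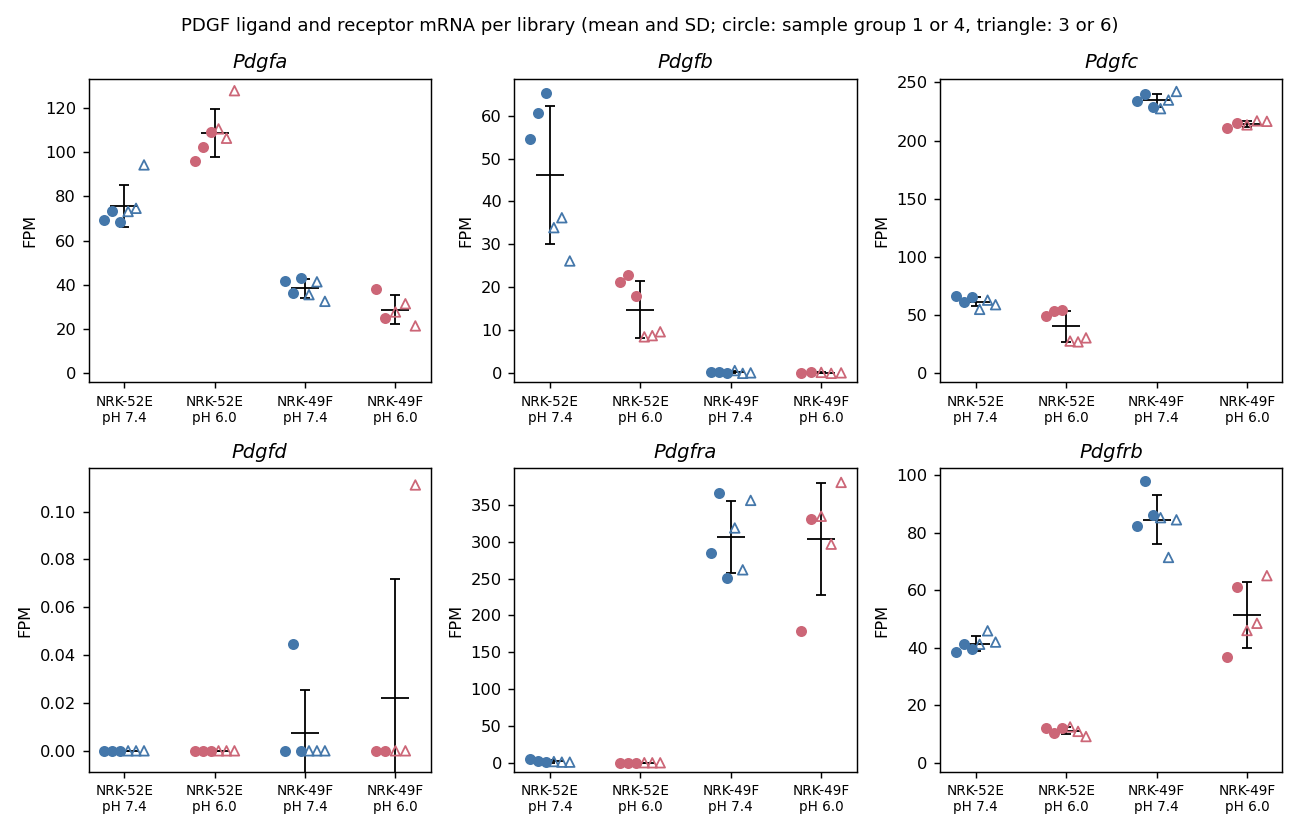
FPM of the 6 PDGF genes in each of the 23 libraries by cell line and pH, with the group mean and SD as bars; circles are sample groups 1 and 4, triangles 3 and 6, and each panel has its own axis. Pdgfra sits at 251 to 366 FPM in NRK-49F cells at pH 7.4 and at most 4.73 FPM in NRK-52E cells, and Pdgfd has no more than 2 counts in any library.

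Among the ligands, Pdgfa (ENSRNOG00000001312, chromosome 12) encodes the A chain, whose dimer binds the alpha receptor. In NRK-52E cells its lowest, median and highest levels were 68.4, 73.2 and 94.2 FPM at pH 7.4, and 95.8, 108 and 128 FPM at pH 6.0. All 6 acid libraries lay above all 6 controls, although the highest control, A035 at 94.2 FPM, came close to the lowest acid library. The log2 change was 0.53 (SE 0.11, adjusted p = 0.000289, edgeR, n = 6 against 6), and it was 0.54 in sample group 1 and 0.52 in sample group 3. Among the 12574 genes with at least 1 FPM in the line, 82.5% had a lower log2 change.

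The same gene went the other way in NRK-49F cells. Its lowest, median and highest levels at pH 7.4 were 32.5, 38.8 and 43.2 FPM, and the 5 acid libraries held 38.3 (A042), 25.2 (A043), 27.7 (A054), 31.5 (A055) and 21.4 (A056) FPM. The groups overlap, since A042 lay among the controls. The log2 change was -0.41 (SE 0.12, adjusted p = 0.0118, edgeR, n = 5 against 6). Within sample group 4 alone it was -0.37 (adjusted p = 0.182) and within sample group 6 alone -0.45 (adjusted p = 0.0590), so the call is lost in either group taken alone, with fewer libraries. The difference between the lines' changes was 0.94 (SE 0.16, adjusted p = 7.39e-05, edgeR).

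Pdgfa levels thus ordered as NRK-52E at pH 6.0 (109 ± 10.8 FPM, SD, n = 6), NRK-52E at pH 7.4 (75.5 ± 9.52 FPM, SD, n = 6), NRK-49F at pH 7.4 (38.4 ± 4.21 FPM, SD, n = 6) and NRK-49F at pH 6.0 (28.8 ± 6.44 FPM, SD, n = 5). The last 2 neighbours in that order overlap. At pH 7.4, all 5 PDGF genes tested were called between the lines, against 68.8% of all genes tested, and for Pdgfa the log2 difference of NRK-49F from NRK-52E was -0.97 (SE 0.11, adjusted p = 4.86e-08, edgeR). At pH 6.0, all 5 were called again, against 75.5% of all genes tested, with -1.91 for Pdgfa (SE 0.12, adjusted p = 9.77e-13, edgeR). These comparisons share samples with those between pH values, so their numbers stand side by side only.

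Pdgfb (ENSRNOG00000017197, chromosome 7) encodes the B chain, whose dimer binds both receptors. In NRK-52E cells its lowest, median and highest levels were 26.1, 45.4 and 65.3 FPM at pH 7.4 and 8.49, 13.8 and 22.9 FPM at pH 6.0. Every acid library was below every control, yet the sample groups differed at either pH. At pH 7.4 the mean was 60.2 ± 5.37 FPM in sample group 1 and 32.1 ± 5.27 FPM in sample group 3 (SD, n = 3 each). At pH 6.0 it was 20.7 ± 2.55 and 8.97 ± 0.616 FPM (SD, n = 3 each). The sample groups did not overlap at either pH, and the difference between them was not tested. The log2 change with acid was -1.64 (SE 0.32, adjusted p = 0.000109, edgeR, n = 6 against 6), with -1.54 in sample group 1 and -1.82 in sample group 3. Only 5.92% of the genes with at least 1 FPM in the line had a lower log2 change.

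In NRK-49F cells Pdgfb was close to the counting limit. The 6 control libraries held 10 (A039), 7 (A040), 0 (A041), 17 (A051), 0 (A052) and 2 (A053) counts, and the 5 acid libraries 3 (A042), 4 (A043), 6 (A054), 0 (A055) and 2 (A056). The groups overlap, and the highest count came from A051. The log2 change of -0.84 (SE 0.87, adjusted p = 0.507, edgeR) was not called. The pooled ratio of pH 7.4 to pH 6.0 was 1.85 (exact 95% interval 0.989 to 3.64), and 1.20 (0.579 to 2.54) without A051. Between the lines, NRK-52E cells held 188 times the NRK-49F level at pH 7.4 (exact 95% interval 136 to 269, 6679 against 36 counts) and 110 times at pH 6.0 (66.4 to 196, 1953 against 15 counts). Without A051 the ratio at pH 7.4 was 290 (185 to 482, 6679 against 19 counts).

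A051 also stood out for genes that are high in NRK-52E cells. Over 16 genes with at least 20 FPM in every NRK-52E library at pH 7.4 and at most 3 counts in every NRK-49F library at pH 6.0, a choice made after seeing the data, the median level as a percent of the NRK-52E mean was 3.42 in A051 (quartiles over genes 2.57 to 4.75). It was 0.459 in A039, 0.410 in A040, 0.316 in A041, 0.0890 in A052 and 0 in A053. Pdgfb itself stood at 1.40% of its NRK-52E mean in A051, below those quartiles, at 0.759% in A039 and at 0.675% in A040. Genes that NRK-49F cells express at pH 7.4 and lose in acid would meet this choice as well, so these percents may not all be NRK-52E signal. They also overstate Pdgfb in A051, where the share would give 41.6 counts and 17 were measured. With the shares subtracted and negative values set to 0, the counts left were 4, 3, 0, 0, 0 and 2 in A039, A040, A041, A051, A052 and A053. How much of the Pdgfb count belongs to NRK-49F cells was not tested further. Its difference between the lines' changes was -0.79 (SE 1.03, adjusted p = 0.573, edgeR) with the counts as they are and -2.68 (adjusted p = 0.0487) after the subtraction. The same subtraction turned the NRK-49F change from -0.84 to 1.04 (adjusted p = 0.481). It reached the libraries at pH 7.4 only, since its reference genes were chosen for low counts in NRK-49F cells at pH 6.0. NRK-52E signal at pH 6.0 was not estimated. The subtraction can thus move the difference in 1 direction only, and both values rest on those few counts. It also took the ratio of NRK-52E to NRK-49F at pH 7.4 from 188 to 753 (396 to 1647, 6679 against 9 counts), and the fitted log2 difference of NRK-49F from NRK-52E from -7.48 to -9.36. The size of that ratio is thus not well fixed.

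Pdgfc (ENSRNOG00000010695, chromosome 2) encodes a chain that is secreted in latent form and binds the alpha receptor after its CUB domain is removed by a protease. In NRK-52E cells its lowest, median and highest levels were 54.97, 62.2 and 66.1 FPM at pH 7.4 and 27.0, 39.9 and 54.5 FPM at pH 6.0. The groups did not overlap, but the acid libraries fell into separate levels by sample group. The acid sample groups also stood apart over all genes. Chi-square per degree of freedom was 44.8 to 70.2 between acid libraries of different sample groups, and 5.94 to 23.5 within a sample group. Sample group 1 went from 64.3 ± 2.43 to 52.4 ± 2.71 FPM and sample group 3 from 58.9 ± 3.96 to 28.4 ± 1.83 FPM (SD, n = 3 each). The log2 change was -0.61 (SE 0.14, adjusted p = 0.000566, edgeR, n = 6 against 6). Taken alone, sample group 1 gave -0.29 (adjusted p = 0.00129) and sample group 3 gave -1.04 (adjusted p = 2.99e-09), and the difference between the sample groups was not tested.

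NRK-49F cells held more Pdgfc, with lowest, median and highest levels of 227, 234 and 242 FPM at pH 7.4. Their acid libraries held 211 (A042), 215 (A043), 214 (A054), 217 (A055) and 217 (A056) FPM. Every acid library was below every control, yet the log2 change of -0.13 (SE 0.14, adjusted p = 0.544, edgeR) was not called. The log2 difference of NRK-49F from NRK-52E was 1.93 at pH 7.4 (SE 0.14, adjusted p = 1.11e-11, edgeR) and 2.41 at pH 6.0 (SE 0.15, adjusted p = 3.17e-13, edgeR). Levels ordered as NRK-49F at pH 7.4, NRK-49F at pH 6.0, NRK-52E at pH 7.4 and NRK-52E at pH 6.0, with no overlap between neighbours.

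For Pdgfc the difference between the lines' changes was -0.48 (SE 0.20, adjusted p = 0.0562, edgeR) and was not called. It passed with sample group as a block (-0.54, adjusted p = 0.00300), with upper-quartile scaling (-0.50, adjusted p = 0.0423) and with the likelihood ratio test (-0.48, adjusted p = 0.0442). It also passed without A024 (-0.54, adjusted p = 0.0332), without A025 (-0.57, adjusted p = 0.0193) or without A026 (-0.58, adjusted p = 0.0151), the acid libraries of sample group 1. With sample group 3 alone for NRK-52E cells it was -0.91 (adjusted p = 4.27e-07) and with sample group 1 alone -0.16 (adjusted p = 0.136). With sample group 4 alone for NRK-49F cells it was -0.34 (adjusted p = 0.429) and with sample group 6 alone -0.37 (adjusted p = 0.302). Over all settings its adjusted p ran from 4.27e-07 to 0.429.

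The balance of these ligands was also read within each library, where scaling plays no part. In NRK-52E cells the ratio of Pdgfa to Pdgfc counts was 1.22 (geometric mean, range 1.05 to 1.60, n = 6) at pH 7.4 and 2.81 (1.92 to 4.19, n = 6) at pH 6.0. All acid libraries were above all controls, with a log2 difference of 1.20 (exact two-sided permutation test, p = 0.00216, 0.00649 adjusted over 3 ratios). It was 0.84 in sample group 1 and 1.57 in sample group 3. In NRK-49F cells the ratio was 0.163 (0.134 to 0.189, n = 6) and 0.132 (0.0991 to 0.182, n = 5), which overlap, with a log2 difference of -0.31 (exact two-sided permutation test, adjusted p = 0.0779). It passed without A042 (-0.42, exact permutation, adjusted p = 0.0190) or without A053 (-0.36, exact permutation, adjusted p = 0.0476), and over all settings the adjusted p ran from 0.0190 to 0.171.

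Pdgfd (ENSRNOG00000029148, chromosome 8) encodes the D chain, a latent ligand like the C chain that binds the beta receptor. It had 0 counts in all 12 NRK-52E libraries, 1 count in A040 and 2 counts in A056, and 0 in the other NRK-49F libraries. Both lines thus lay under the limit of 3 counts at either pH, and no fold is given.

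Of the receptors, Pdgfra (ENSRNOG00000002244, chromosome 14) encodes the alpha chain, which takes up the A, B and C ligands and is a common marker of fibroblasts. In NRK-49F cells its lowest, median and highest levels were 251, 301.3 and 366 FPM at pH 7.4. The acid libraries held 179 (A042), 330 (A043), 334 (A054), 297 (A055) and 380 (A056) FPM. The groups overlap fully, and A042 was the lowest of the 11 libraries. Without A042 the log2 change was 0.13 (adjusted p = 0.777). The log2 change of -0.01 (SE 0.27, adjusted p = 0.986, edgeR, n = 5 against 6) was not called, a result that does not show equal levels. It was -0.26 in sample group 4, which holds A042, and 0.10 in sample group 6.

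In NRK-52E cells the gene was at trace level. At pH 7.4 it had 169 (A021), 41 (A022), 18 (A023), 36 (A033), 16 (A034) and 15 (A035) counts, or 0.679 to 4.73 FPM with a median of 1.26. At pH 6.0 it had 1 count in A024, 2 in A036 and 0 in A025, A026, A037 and A038. All controls were above all acid libraries, and A021, A022 and A033 were the 3 highest. The pooled ratio of pH 7.4 to pH 6.0 was 91.4 (exact 95% interval 31.0 to 446, 295 against 3 counts). The fitted log2 change of -6.08 (SE 0.78, adjusted p = 3.83e-07, edgeR, n = 6 against 6) depends on the prior count, so the ratio of counts is the better measure of size. It was -7.10 in sample group 1 and -4.81 in sample group 3.

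These 3 libraries carried NRK-49F signal across many genes, and their own Pdgfra level was separated from it as follows. Reference genes had at least 50 FPM in every NRK-49F library at pH 7.4 and at most 3 counts in each of A023, A034 and A035, which gave 28 genes without the PDGF genes. Their median level as a percent of the NRK-49F mean was 1.47 in A021 (quartiles over genes 1.35 to 1.61), 0.461 in A022 (0.361 to 0.557) and 0.231 in A033 (0.168 to 0.333). All 28 genes had a count in A021, and 27 had one in A022 and in A033. The median was 0 in A023, A034 and A035, which the choice of genes keeps low, and at most 0.00305 in the acid libraries. Fibroblast markers with over 3 counts numbered 21 of 25 in A021, 18 in A022 and 17 in A033, and 14, 13 and 13 in A023, A034 and A035. The markers Lum, Prrx1, Prrx2 and Cdh11 meet the choice of reference genes themselves, so these numbers are no separate test. They also grow with depth, which was greatest in A021.

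Pdgfra stood at 1.54% of its NRK-49F mean in A021, inside the quartiles of the reference genes. It stood at 0.720% in A022 and 0.535% in A033, above those quartiles, and at 0.222% in A023, 0.285% in A034 and 0.277% in A035. The NRK-49F share accounts in size for 95.2% of the Pdgfra level in A021, 64.1% in A022 and 43.1% in A033. What remained was 0.228 FPM in A021, 0.793 in A022, 0.679 in A023, 0.931 in A033, 0.873 in A034 and 0.849 in A035. In counts this is 8, 15, 18, 20, 16 and 15. Apart from A021, where little remained beside a large share, the libraries came to 0.679 to 0.931 FPM by medians. The choice of genes keeps the share of A023, A034 and A035 low, so their nearness to A022 and A033 is no test. By sums over these genes the NRK-49F percent was 0.0176 in A023, 0.0243 in A034 and 0.00988 in A035. By sums over a second reference set, given below, A033 had 0.407% against a median of 0.270%, so less would remain there.

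**Figure D2:**
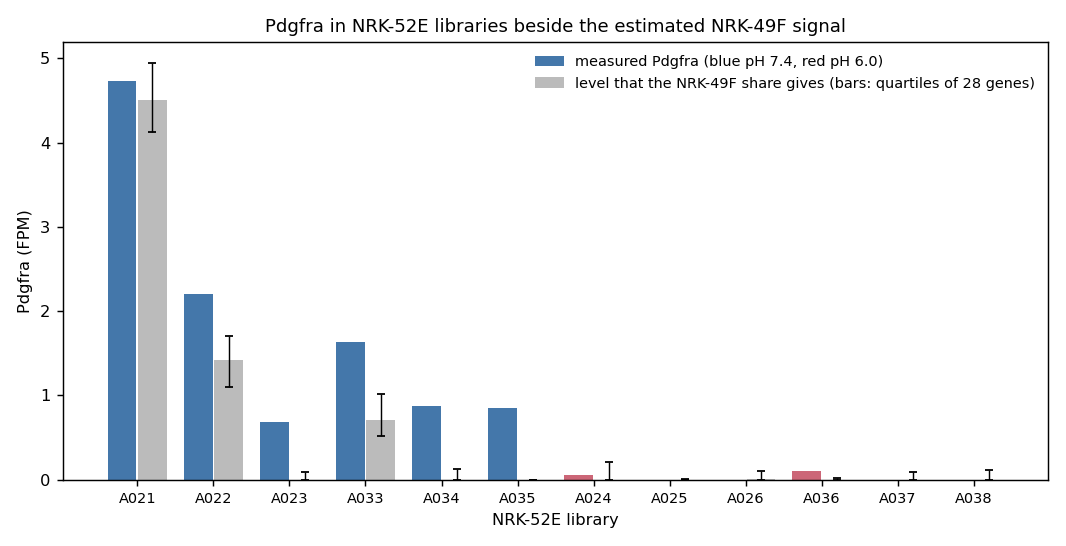
Measured Pdgfra level (FPM, coloured bars) in the 12 NRK-52E libraries beside the level that the estimated NRK-49F share would give (grey bars, with error bars for the quartiles over 28 reference genes). The grey bar comes close to the measured one in A021, where the share is 1.47%, while A023, A034 and A035 hold 0.679 to 0.873 FPM with a share of 0.

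The fall with acid was also present without the doubtful libraries. With A021, A022 and A033 left out, the ratio of pH 7.4 to pH 6.0 was 33.7 (exact 95% interval 10.9 to 169, 49 against 3 counts). With the shares subtracted instead, it was 28.5 (9.45 to 141, 92 against 3 counts). A second set of 25 reference genes, chosen after seeing the data for at most 3 counts in every NRK-52E library at pH 6.0, gave shares of 1.47% in A021, 0.453% in A022, 0.270% in A033 and 0 in A023, A034 and A035. With these the ratio was 27.9 (9.24 to 138). Each acid library lay under the limit of 3 counts. By sums over the 28 reference genes in place of medians, the NRK-49F percent was 0.0453 in A024 and 0.0427 in A036, above the 0.0173% and 0.0342% at which Pdgfra stood in these libraries. In A025, A026, A037 and A038, where Pdgfra had 0 counts, the sums gave 0.0297 to 0.0411%. Reference genes that NRK-52E cells gain in acid would raise these sums as well, which was not tested. The acid level is thus not shown to lie above the NRK-49F signal, and ratios against it may be too small. The fall is smaller without the NRK-49F signal in the controls, and the direction and the call are kept (adjusted p = 2.30e-06 without the 3 libraries, 1.66e-06 with the main shares subtracted, edgeR).

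The difference between the lines' Pdgfra changes was -6.07 (SE 0.87, adjusted p = 5.58e-06, edgeR), and it includes the NRK-49F signal. It was -4.77 (adjusted p = 1.13e-05) without A021, A022 and A033 and -4.56 (adjusted p = 1.13e-05) with the shares subtracted. NRK-49F cells held 143 times the NRK-52E level at pH 7.4 (exact 95% interval 128 to 161) and 13055 times at pH 6.0 (4467 to 63310, 33007 against 3 counts), where the interval covers counting error only. The latter ratio may be too small, since the NRK-52E level at pH 6.0 is not shown to lie above the NRK-49F signal. The former ratio includes the NRK-49F signal in A021, A022 and A033. It was 389 without them (294 to 526, 42951 against 49 counts) and 460 with the shares subtracted (375 to 571, 42951 against 92 counts). Levels in the NRK-49F groups overlap, and both lie above NRK-52E at pH 7.4, which lies above NRK-52E at pH 6.0.

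The other genes were far less touched by this signal. In A021 the NRK-49F share amounts to 5.22% of the Pdgfc level, 3.22% of the Pdgfrb level and 0.816% of the Pdgfa level. In A022 it amounts to 1.76%, 0.942% and 0.242%, and in A033 to 0.984%, 0.474% and 0.121%, in the same order. For Pdgfb it is 0.00634% or less in these 3 libraries.

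Pdgfrb (ENSRNOG00000018461, chromosome 18) encodes the beta chain, which takes up the B and D ligands and is a common marker of pericytes and mesangial cells. In NRK-52E cells its lowest, median and highest levels were 38.6, 41.3 and 45.9 FPM at pH 7.4 and 9.12, 11.5 and 12.5 FPM at pH 6.0. The groups lay far apart, and the sample groups overlapped at either pH. The log2 change was -1.89 (SE 0.12, adjusted p = 2.79e-12, edgeR, n = 6 against 6), with -1.78 in sample group 1 and -1.98 in sample group 3. A lower log2 change was found for 4.10% of the genes with at least 1 FPM in the line.

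In NRK-49F cells the lowest, median and highest Pdgfrb levels were 71.4, 84.9 and 97.99 FPM at pH 7.4, and the acid libraries held 36.7 (A042), 61.1 (A043), 46.0 (A054), 48.5 (A055) and 65.1 (A056) FPM. All acid libraries were below all controls. The log2 change was -0.72 (SE 0.12, adjusted p = 4.54e-05, edgeR, n = 5 against 6), with -0.89 in sample group 4 and -0.61 in sample group 6. Pdgfrb fell in both lines, and more in NRK-52E cells, with a difference of -1.17 (SE 0.16, adjusted p = 3.73e-06, edgeR). The log2 difference of NRK-49F from NRK-52E was 1.03 at pH 7.4 (SE 0.11, adjusted p = 1.15e-08, edgeR) and 2.20 at pH 6.0 (SE 0.12, adjusted p = 3.78e-14, edgeR). Levels ordered as NRK-49F at pH 7.4, NRK-49F at pH 6.0, NRK-52E at pH 7.4 and NRK-52E at pH 6.0. The middle neighbours overlap, since A042 lay below the NRK-52E controls.

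The receptor balance within NRK-49F libraries moved toward the alpha chain. The ratio of Pdgfra to Pdgfrb counts was 3.60 (geometric mean, range 2.91 to 4.21, n = 6) at pH 7.4 and 5.84 (4.87 to 7.26, n = 5) at pH 6.0. All acid libraries were above all controls, with a log2 difference of 0.70 (exact two-sided permutation test, p = 0.00433, 0.00649 adjusted over 3 ratios). It was 0.61 in sample group 4 and 0.72 in sample group 6, and A042, lowest in both receptor genes, had the lowest of the acid ratios, 4.87.

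**Figure D3:**
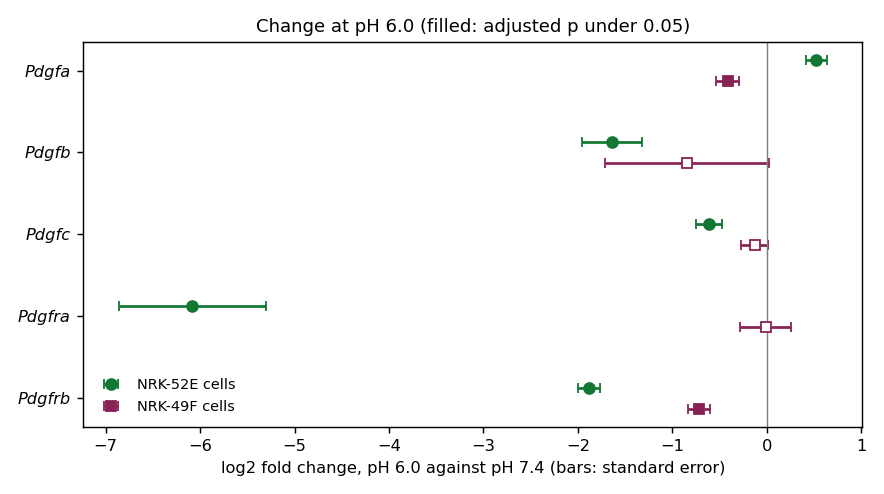
Log2 change in FPM at pH 6.0 against pH 7.4 for the 5 PDGF genes tested, with bars for 1 SE, circles for NRK-52E cells and squares for NRK-49F cells, filled where the adjusted p is under 0.05. Pdgfa is the only one of the 5 above 0 in NRK-52E cells, at 0.53, and its value in NRK-49F cells is -0.41.

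Markers of other cell types moved with these results. Under acid, 36.6% of all genes tested were called lower and 24.7% higher in the NRK-52E line. The shares for NRK-49F were 14.4% lower and 14.5% higher. Calls in each marker list below are to be read beside these shares. In NRK-52E cells the summed fibroblast markers, led by Col3a1, were 7567 ± 1500 FPM for controls and 3230 ± 602 FPM under acid (SD, n = 6 each), with 17 of 21 tested lower and 2 higher. In NRK-49F cells, led by Col1a1, they were 13335 ± 1084 and 9032 ± 1166 FPM (SD, n = 6 and 5), with 8 of 21 lower and 0 higher by edgeR, also 0 at an unadjusted p under 0.05 and by DESeq2. In NRK-52E libraries the sum was 5983, 6191, 6556, 8693, 9502 and 8475 FPM in A021, A022, A023, A033, A034 and A035, and 2590, 2672, 2791, 3844, 3759 and 3722 FPM in A024, A025, A026, A036, A037 and A038. Dcn had no counts in NRK-52E cells at either pH, and Lum and Prrx1 had none at pH 6.0.

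The summed pericyte and smooth muscle markers, led by the actin-binding gene Tagln, were 751 ± 192 and 240 ± 26.7 FPM (SD, n = 6 each) for NRK-52E controls and acid cells, with 5 of 9 tested lower and 2 higher. For NRK-49F cells they were 28.5 and 21.2 FPM, with 2 lower and 1 higher. Of all genes tested in that line, 14.4% were lower and 14.5% higher, against 36.6% and 24.7% for NRK-52E. By library the sum was 611, 667, 555, 806, 775 and 1092 FPM in A021, A022, A023, A033, A034 and A035. It was 240, 254, 282, 225, 203 and 235 FPM in A024, A025, A026, A036, A037 and A038. A035 was thus highest here as it was for Pdgfa, and Kcnj8, a pericyte marker, had no counts in NRK-49F cells.

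Epithelial markers, led by Krt8, summed in NRK-52E cells to 581 ± 79.1 FPM for controls and 269 ± 26.4 FPM under acid (SD, n = 6 each), with 6 of 10 tested lower and 1 higher. In NRK-49F cells they summed to 851 and 579 FPM, with 3 lower and 2 higher. These calls, and the endothelial and macrophage calls below, are to be read beside the same shares of all genes tested. By library the NRK-52E sum was 556, 572, 542, 547, 528 and 739 FPM at pH 7.4 (A021, A022, A023, A033, A034, A035), again highest in A035. At pH 6.0 it was 246, 261, 308, 259, 245 and 295 FPM (A024, A025, A026, A036, A037, A038). Endothelial markers summed to 16.2 and 4.33 FPM in NRK-52E cells and to 7.76 and 9.73 FPM in NRK-49F cells, with Kdr and Emcn at 0 in every group. Of 5 endothelial genes tested, acid NRK-52E cells had 2 higher and 3 lower, and acid NRK-49F cells 0 called by edgeR, with 1 higher at an unadjusted p under 0.05 and 1 higher by DESeq2. Macrophage markers, mostly the lipopolysaccharide co-receptor gene Cd14 and the lysosomal gene Cd68, summed to 98.6 and 116 FPM in NRK-52E cells and to 131 and 311 FPM in NRK-49F cells, with 2 of 3 and 1 of 3 tested higher and the defining genes Adgre1 and Tyrobp at 0. In NRK-49F cells the mean of Cd68 went from 29.9 to 229 FPM and that of Cd14 from 101 to 81.8 FPM, so the higher sum came from Cd68. In NRK-52E cells the sum was mostly Cd14 (95.5 and 110 FPM), with Cd68 at 1.90 and 4.15 FPM. The NRK-52E sum went opposite ways in the sample groups. It was 101, 107 and 107 FPM at pH 7.4 (A021, A022, A023) and 145, 169 and 173 FPM at pH 6.0 (A024, A025, A026) in sample group 1. In sample group 3 it was 89.8, 83.8 and 103 FPM (A033, A034, A035) and 60.8, 65.8 and 81.5 FPM (A036, A037, A038). The part of these shifts in the PDGF results was not tested.

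The genes most like each member were taken by Pearson's r of log2 FPM across the libraries of a line, as a description that includes the pH effect all these libraries share. In NRK-52E cells (n = 12) Pdgfa ran closest to Eif4a3 (r = 0.996), Sars1 (0.995) and Gstm2 (0.994). Pdgfb ran closest to Sh3rf1 (0.996), Tns3 (0.993) and Slc24a3 (0.993), and Pdgfc to C5ar2 (0.994), Cyp1b1 (0.992) and Tmem51 (0.992). For Pdgfrb they were Tbc1d19 (0.995), Smtnl2 (0.994) and Gas7 (0.994). Such values were common, since many of the 9491 genes compared had r over 0.9. These numbered 760 for Pdgfa, 905 for Pdgfb, 714 for Pdgfc and 1221 for Pdgfrb.

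In NRK-49F cells (n = 11) the closest genes were Ywhaq (r = 0.973), Gadd45b (0.966) and Yipf3 (0.966) for Pdgfa, and Zswim3 (0.966), Rap2a (0.965) and Dgcr8 (0.960) for Pdgfc. Pdgfra ran closest to Jak1 (0.978), Ubp1 (0.977) and Igf2r (0.975), and Pdgfrb to Acin1 (0.991), Phldb1 (0.990) and Polr1a (0.990). Among the PDGF genes themselves, Pdgfb and Pdgfc had r = 0.918 in NRK-52E cells (n = 12) and Pdgfa and Pdgfb r = -0.918. Within pH 7.4 and within pH 6.0 (n = 6 each), r was 0.676 and 0.972 for the former pair. For the latter pair it was -0.800 and -0.628. At pH 6.0, Pdgfb and Pdgfc were each lower in every library of sample group 3 than in sample group 1. Pdgfb was split the same way at pH 7.4. These values of r thus include the difference between sample groups. In NRK-49F cells Pdgfa and Pdgfra had r = -0.603 (n = 11), and r = -0.902 within pH 7.4 (n = 6). At pH 6.0, A056 was highest in the receptor gene and lowest in the ligand gene, and A042 the reverse among the 5 acid libraries.

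Other genes of the pathway were read from fixed lists. For scale, acid raised 24.7% and lowered 36.6% of all genes tested in the NRK-52E line, against 14.5% raised and 14.4% lowered for NRK-49F, and the difference between lines was above 0 for 16.8% and below 0 for 24.7%. The excess of falls in NRK-52E was 5130 against 3919 genes with RLE scaling and 5562 against 3529 with upper-quartile scaling, and nearly vanished with each line fitted alone (4258 against 4077). The balance of rises and falls in a list is thus given with its alternatives and not ranked against all genes. Of 9 tested genes that activate or bind PDGF ligands, NRK-52E cells had 0 higher and 3 lower by edgeR (median log2 -0.24, all genes tested -0.12), and NRK-49F cells had 1 higher and 4 lower (median -0.33, all genes tested 0.00). At an unadjusted p under 0.05 the number higher in NRK-52E cells was also 0, and by DESeq2 it was 1, as with RLE scaling and with each line fitted alone. In NRK-52E cells Pcsk5, a proprotein convertase, fell from 37.7 ± 3.93 to 11.6 ± 0.970 FPM (SD over 6 libraries each), a log2 change of -1.71 (SE 0.09, adjusted p = 5.04e-13, edgeR). It was also called lower in NRK-49F cells (-0.35), a call lost in sample group 6 alone (-0.25, adjusted p = 0.289, edgeR). In NRK-49F cells the convertase gene Furin rose by 0.58 (SE 0.11, adjusted p = 0.000278, edgeR), and Sparc, whose matrix protein binds PDGF, changed by -0.77 (SE 0.12, adjusted p = 2.80e-05, edgeR). In sample group 4 alone neither passed (Furin 0.47, adjusted p = 0.109, and Sparc -0.59, adjusted p = 0.0557).

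Of 24 adaptors and enzymes that dock on the receptors, NRK-52E cells had 8 higher and 10 lower (median -0.06), and NRK-49F cells 1 higher and 5 lower (median -0.08). The gene of a catalytic subunit of phosphatidylinositol 3-kinase, Pik3ca, rose under acid in NRK-52E from 90.2 ± 6.34 to 204 ± 15.6 FPM (SD over 6 libraries each), by 1.18 (SE 0.08, adjusted p = 1.47e-11, edgeR). It rose by 0.34 in NRK-49F cells (SE 0.08, adjusted p = 0.00302, edgeR), a call lost in sample group 6 alone (0.30, adjusted p = 0.111), and the changes differed by 0.83 (adjusted p = 3.99e-06, edgeR). The adaptor gene Shc1 changed by -0.88 in NRK-52E cells (SE 0.09, adjusted p = 7.50e-09, edgeR) and the adaptor gene Nck1 by -0.62 in NRK-49F cells (SE 0.08, adjusted p = 2.10e-06, edgeR). Nck1 was also called lower in NRK-52E cells (-0.30), a call lost in sample group 1 alone (-0.16, adjusted p = 0.190, edgeR). The numbers in NRK-52E cells moved with the processing, to 8 higher and 5 lower with each line fitted alone, 4 higher and 6 lower with sample group 1 alone, and 7 higher and 6 lower without A021, A022 and A033, so neither direction prevails.

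The 14 tested genes of the Ras-ERK and Akt cascade were split, NRK-52E cells having 5 higher and 3 lower (median 0.04) and NRK-49F cells 2 higher and 4 lower (median 0.02). In NRK-52E cells the number higher was 3 without A038, and 2 without A021, A022 and A033, where 2 were lower. With each line fitted alone there were 6 higher and 1 lower in that line. With sample group 1 alone there were 3 higher and 0 lower by edgeR, 4 and 3 at an unadjusted p under 0.05, and 4 and 0 by DESeq2. In NRK-49F cells the number higher was 1 without A041 or without A054, and also 1 with no filter beyond 1 count. The ERK kinase genes went opposite ways in NRK-52E cells, Map2k1 by 0.66 (SE 0.05, adjusted p = 2.20e-10, edgeR) and Map2k2 by -0.67 (SE 0.14, adjusted p = 0.000223, edgeR). The latter did not pass in sample group 1 alone (-0.43, adjusted p = 0.0621). Map2k1 was also called higher in NRK-49F cells (0.17), a call lost in several other settings, among them sample group 4 alone (0.16, adjusted p = 0.316, edgeR). In NRK-49F cells Rps6ka3, a kinase gene downstream of ERK, changed by -0.98 (SE 0.11, adjusted p = 4.97e-07, edgeR).

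Of 17 brakes and feedback genes, NRK-52E cells had 3 higher and 7 lower (median -0.43), and NRK-49F cells 1 higher and 3 lower (median 0.02). With each line fitted alone the latter were 2 higher and 4 lower. Dusp6, an ERK phosphatase that ERK signalling itself induces, fell in both lines. In NRK-52E cells it dropped from 7.65 ± 1.29 to 1.71 ± 0.449 FPM (SD over 6 libraries each), a log2 change of -2.14 (SE 0.15, adjusted p = 2.37e-11, edgeR). In NRK-49F cells it went from 63.8 ± 5.90 to 27.98 ± 3.88 FPM (SD, n = 6 and 5), a log2 change of -1.19 (SE 0.13, adjusted p = 3.12e-07, edgeR). The difference was -0.95 (adjusted p = 0.000451, edgeR), and -0.73 (adjusted p = 0.0537) with sample group 4 alone in NRK-49F cells. Socs1, a suppressor of cytokine signalling, rose by 1.08 in NRK-52E cells (SE 0.17, adjusted p = 8.76e-06, edgeR), and the phosphatase gene Acp1 by 0.46 in NRK-49F cells (SE 0.10, adjusted p = 0.00107, edgeR). For Acp1 in NRK-49F cells the call is lost in sample group 4 alone (0.49, adjusted p = 0.0567) and in sample group 6 alone (0.40, adjusted p = 0.0671). Acp1 was also called higher in NRK-52E cells (0.44), and the difference between the lines was not called (-0.02, adjusted p = 0.909, edgeR).

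Among 15 early genes of the serum and PDGF response, NRK-52E cells had 0 higher and 8 lower by edgeR (median -0.44), and NRK-49F cells 4 higher and 2 lower (median -0.25). The number higher in NRK-52E cells was 0 at an unadjusted p under 0.05 and by DESeq2 as well, and it was 1 without A023 and 1 with sample group 1 alone, where 5 were lower. With each line fitted alone, 4 were higher and 4 lower in NRK-49F cells, so the excess of rises there was lost. Jun, an AP-1 subunit, dropped in NRK-52E from 115 ± 6.36 to 57.3 ± 4.85 FPM (SD over 6 libraries each), a log2 change of -1.001 (SE 0.08, adjusted p = 7.56e-11, edgeR). Fosl1, another AP-1 subunit, went from 38.5 ± 3.06 to 112 ± 18.3 FPM (SD, n = 6 and 5) in NRK-49F cells, by 1.54 (SE 0.12, adjusted p = 1.45e-09, edgeR), and its change in NRK-52E cells was lower by a log2 difference of -1.46 (adjusted p = 2.07e-06, edgeR). Srf, the serum response factor gene, changed by -0.82 in NRK-49F cells (SE 0.08, adjusted p = 1.69e-08, edgeR). It was also called lower in NRK-52E cells (-0.66), and the difference between the lines was not called (0.16, adjusted p = 0.214, edgeR).

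Of related receptors and ligands, 9 were tested, and NRK-52E cells had 4 higher and 2 lower (median -0.38), NRK-49F cells 2 higher and 2 lower (median 0.08). The balance in NRK-52E cells depends on the setting. It was 2 higher and 3 lower with sample group 3 alone, 4 and 4 at an unadjusted p under 0.05, and 3 and 1 with each line fitted alone, with sample group 1 alone or without A021, A022 and A033. Kitlg, the ligand gene of the KIT receptor, dropped in NRK-52E from 48.0 ± 16.8 to 15.5 ± 4.04 FPM (SD over 6 libraries each), a log2 change of -1.64 (SE 0.19, adjusted p = 7.46e-08, edgeR). The growth factor gene Vegfd, distantly related to the PDGF genes, rose there by 1.83 from a low level (0.700 to 2.58 FPM, SE 0.35, adjusted p = 7.19e-05, edgeR). Vegfa, the main vascular growth factor gene, rose by 1.46 in NRK-49F cells (SE 0.12, adjusted p = 3.90e-09, edgeR), from 169 ± 25.4 to 466 ± 102 FPM (SD, n = 6 and 5). Vegfa was also called higher in NRK-52E cells, by 0.80. The lymphatic growth factor gene Vegfc changed by -0.61 in NRK-49F cells (SE 0.19, adjusted p = 0.0179, edgeR), a call lost in sample group 4 alone (-0.78, adjusted p = 0.138) and in sample group 6 alone (-0.51, adjusted p = 0.276). Kit, Flt3, Kdr and Flt4 were too low to be tested.

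The difference between the lines' changes was itself called in each list. It was above 0 for 2 and below 0 for 4 of the 9 ligand activators and binders, 7 and 4 of the 24 adaptors and enzymes, and 4 and 3 of the 14 cascade genes. For the 17 brakes and feedback genes it was above 0 for 3 and below 0 for 7, and for the 9 related receptors and ligands for 1 and 3. The 15 early genes had 6 below 0 and 0 above by edgeR, also 0 above at an unadjusted p under 0.05 and by DESeq2, and 2 above with sample group 1 alone in NRK-52E cells. The median over all genes tested was -0.09. Without A021, A022 and A033 the adaptors and enzymes had 4 above 0. With sample group 4 alone in NRK-49F cells, the numbers below 0 were 2 for the ligand activators and binders, 2 for the adaptors and enzymes, 1 for the cascade and 2 for the brakes and feedback genes. The related receptors and ligands then had 0 above by edgeR, against 1 at an unadjusted p under 0.05 and 1 by DESeq2. With sample group 6 alone the cascade had 1 below. With sample group 1 alone in NRK-52E cells the brakes and feedback genes had 1 above and the related receptors and ligands 2. With sample group 6 alone in NRK-49F cells, every list had fewer genes lower in that line, with fewer samples by construction.

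RefSeq promoters, 300 bases each on build GRCr8, were matched by symbol for 5 of the 6 members. They are shown for Pdgfa, which rose in NRK-52E cells, and for Pdgfb and Pdgfra, which fell there. The motifs searched on both strands were the GC box GGGCGG, the TATA box TATAAA and the AP-1 motif TGACTCA, and no matches overlap. Capitals mark a match, here CCGCCC, the reverse complement of GGGCGG. The GC box matched 1 time in Pdgfa, at base 64 of the window, 1 time in Pdgfb, at base 44, and 1 time in Pdgfd and did not match in Pdgfc or Pdgfra. TATAAA and TGACTCA matched in none of the 5. Of 33469 rat promoters, 33.1% held GGGCGG, 14.2% TATAAA and 4.63% TGACTCA. CpG dinucleotides numbered 17 in Pdgfa, 22 in Pdgfb, 14 in Pdgfc, 12 in Pdgfd and 5 in Pdgfra, with a median of 7 over all promoters. The windows are chr12:20759116-20759415 on the plus strand, chr7:113438294-113438593 on the minus strand and chr14:33408467-33408766 on the minus strand. A match is a description of letters and not a site in use.
Pdgfa: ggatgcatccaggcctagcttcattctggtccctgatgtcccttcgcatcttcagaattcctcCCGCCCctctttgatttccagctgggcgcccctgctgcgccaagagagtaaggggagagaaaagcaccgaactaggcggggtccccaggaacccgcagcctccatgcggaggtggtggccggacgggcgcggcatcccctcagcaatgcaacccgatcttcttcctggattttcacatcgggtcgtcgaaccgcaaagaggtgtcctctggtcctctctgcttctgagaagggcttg
Pdgfb: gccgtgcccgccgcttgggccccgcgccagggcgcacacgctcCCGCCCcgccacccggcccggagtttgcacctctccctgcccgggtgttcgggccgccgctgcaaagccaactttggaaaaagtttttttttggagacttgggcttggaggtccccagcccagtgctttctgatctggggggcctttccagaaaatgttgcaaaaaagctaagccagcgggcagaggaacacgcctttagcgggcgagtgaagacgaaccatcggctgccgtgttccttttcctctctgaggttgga
Pdgfra: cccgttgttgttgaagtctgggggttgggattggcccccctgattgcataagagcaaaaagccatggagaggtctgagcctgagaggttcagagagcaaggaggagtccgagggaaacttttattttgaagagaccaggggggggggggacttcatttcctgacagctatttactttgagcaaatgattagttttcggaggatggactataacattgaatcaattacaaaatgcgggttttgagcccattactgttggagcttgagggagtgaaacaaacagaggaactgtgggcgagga

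In the RefSeq annotation, Pdgfa overlaps the long non-coding gene LOC134481161, Pdgfc overlaps the small nuclear RNA gene Rnu7-62 and Pdgfd overlaps the protein-coding gene Ddi1. Pdgfb, Pdgfra and Pdgfrb overlap no other gene there. The part of overlapping genes in the counts was not tested.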

How the data were processed

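Poly(A) RNA from 23 samples (NRK-52E and NRK-49F cells at pH 7.4 or 6.0) was read as the raw gene counts that the authors deposited. Per the submitters' notes, reads were mapped with HISAT2 2.1.0 and counted with featureCounts; those notes name rn6 and the study's methods name rn7, so chromosomes but no positions are taken from the table. Multi-mapping reads are included, and the strand setting is not stated. Of 36 count columns, 13 match no label and were not used.

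Counts were filtered with filterByExpr (minimum 10 per library, 15 in total), scaled by TMM and fitted in a single model of 4 groups with edgeR 4.0.16 (quasi-likelihood test, limma 3.58.1, R 4.3.3). Benjamini-Hochberg adjustment ran over all 14777 genes tested, with an adjusted p under 0.05 as a call. The SE is the log2 change over the square root of F. The comparisons were pH 6.0 against 7.4 in each line, the difference of these changes, and NRK-49F against NRK-52E at each pH. Ratios of counts within a library, with 0.5 added to each count, used exact two-sided permutation tests (Python 3.11.15, scipy 1.17.1), adjusted over 3. Ratios of pooled counts have exact 95% intervals. Figures used matplotlib 3.10.9.

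Alternatives were RLE and upper-quartile scaling, DESeq2 1.42.0, edgeR's likelihood ratio test, a call by both tools as in the study, other filters, each line fitted alone, sample group as a block or alone, each replicate left out, A021, A022 and A033 left out, and subtraction of the other line's signal. The second reference set and both settings of the NRK-52E signal were chosen after seeing the data, as were the ratios of counts between lines with libraries left out or signal subtracted.

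Named genes are all 6 members, the called genes with the largest rise and fall per pathway list and line (mean level 1 FPM or more), and the 3 genes of at least 5 FPM most correlated with each member that has a mean of at least 1 FPM in a line (prior count 2). The lists cover ligand activation and binding, receptor adaptors and enzymes, the Ras-ERK and Akt cascade, receptor brakes and feedback, early genes, related receptors and ligands, and markers of fibroblasts, epithelium, pericytes and smooth muscle, endothelium and macrophages. Members and lists were chosen with earlier results of these data known. Some listed genes, Dusp1, Flt3lg and Krt19 among them, have no entry in the table, and 1 gene picked by the rule is not reported. Promoters are from RefSeq (GRCr8). The steps were tested on simulated data.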

Additional observations from a re-analysis of the deposited data

Results flagged for a closer look

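Among the NRK-52E libraries at pH 7.4, A035 stood apart from the other 5 for Pdgfa, at 94.2 FPM. For Pdgfd, A040 stood apart in NRK-49F cells at pH 7.4 with 0.0445 FPM, which is 1 count, and A056 at pH 6.0 with 0.111 FPM, which is 2 counts, both under the limit of 3 counts. Chance singles out about 1 in 20 groups of samples under this criterion, and 22 were looked at.

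The effect of acid differed between the lines by edgeR's test of the difference for Pdgfa (0.94, higher in NRK-52E cells), for Pdgfra (-6.07 with NRK-49F signal included, -4.56 with that signal subtracted and -4.77 without A021, A022 and A033, with the NRK-52E level near the counting limit) and for Pdgfrb (-1.17, lower in NRK-52E cells).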

How the results depend on the processing

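Of 714 values for the 25 changes and differences of the PDGF genes under other settings, 698 kept direction and side of the threshold, 8 passed it where the reported value did not, 2 no longer passed, and 6 changed direction with no call on either side. The difference between the lines' Pdgfc changes was -0.50 with upper-quartile scaling, -0.48 with the likelihood ratio test, -0.54 with sample group as a block and -0.91 with sample group 3 alone in NRK-52E cells, and it ran from -0.58 to -0.38 with each replicate left out. The difference for Pdgfb became -2.68 with the NRK-52E signal subtracted, and its change in NRK-49F cells went from -0.84 to 1.04. Pdgfra in NRK-49F cells, at -0.01, was 0.10 with sample group 6 alone and ran from -0.10 to 0.13 with each replicate left out. With sample group 4 alone, Pdgfa in NRK-49F cells had -0.37, with 1 PDGF gene called and 1708 genes called in that line and 3709 for the difference between lines. With sample group 6 alone the values were -0.45, 1 PDGF gene and 1800 genes, and fewer samples by construction enter these settings. The Pdgfa to Pdgfc ratio in NRK-49F cells ran from -0.42 to -0.20 with each replicate left out.

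Taken by sums over the reference genes in place of medians, the NRK-49F percent was 0.0176 in A023, 0.0243 in A034 and 0.00988 in A035. It was 0.0453 in A024, 0.0297 in A025, 0.0395 in A026, 0.0427 in A036, 0.0310 in A037 and 0.0411 in A038. Over the second reference set it was 0.407 in A033 by sums, against a median of 0.270. The NRK-52E percent by sums was 0.130 in A053. Vegfc reversed in the difference between lines, from 0.23 to -0.49 with sample group 3 alone in NRK-52E cells (adjusted p = 0.00444, edgeR). With sample group 1 alone that difference was 0.75 (adjusted p = 0.000279, edgeR), so the sample groups gave calls in opposite directions. Of 1760 values for named pathway genes, 1696 kept direction and side, 12 passed, 27 no longer passed and 25 changed direction, none of these called on either side apart from the Vegfc difference. The Acp1 difference between lines, at -0.02, was 0.0248 with RLE scaling, 0.0253 with DESeq2, 0.00492 with sample group 3 alone, 0.0513 with sample group 4 alone and 0.14 with sample group 6 alone, and ran from -0.0752 to 0.0369 with each replicate left out. In NRK-52E cells Rps6ka3 went from -0.08 to 0.0117 with each line fitted alone and Vegfc from -0.38 to 0.14 with sample group 1 alone. Vegfc there was -1.11 with sample group 3 alone (adjusted p = 7.47e-08, edgeR). Sparc there went from 0.04 to -0.12 with sample group 3 alone and to -0.0718 without A021, A022 and A033, and ran from -0.0271 to 0.11 with each replicate left out, and Fosl1, at 0.08, from -0.0158 to 0.13. In NRK-49F cells Vegfd went from 0.18 to -0.0918 with sample group 4 alone, and Map2k2, at 0.01, was -0.0846 with sample group 6 alone and ran from -0.10 to 0.11 with each replicate left out. Of 1056 list counts 1003 stayed within 1.5 times, and 35 of the 53 others came from sample groups taken alone. Where no reason is given, the cause was not tested. Fitting each line alone moved the median log2 change of all genes in NRK-52E cells from -0.12 to -0.0023 and the genes called from 3647 higher and 5402 lower to 4077 and 4258, and none of the 5 PDGF genes tested changed direction in that line under that setting or either other scaling. NRK-52E signal in the NRK-49F libraries at pH 6.0 was not estimated, since the reference genes for it were chosen for low counts there. Depth limits Pdgfd, Pdgfb in NRK-49F cells and Pdgfra in NRK-52E cells, which rest on few counts per library.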
